A study of Mus musculus with 8 samples.

Results

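The 39 genes described here encode proteins of the lysosome: 10 peptidases, 8 glycosidases, 7 enzymes and carriers of lipid turnover, 6 proteins of the lysosomal membrane, 5 subunits of the proton pump, and a group of 3 that holds the regulators Tfeb and Tfe3 with progranulin. They were taken by gene name from a table of 54532 genes, and all 39 were found in it. The table holds 8 RNA-Seq libraries of mouse bone marrow LSK cells, which are Lin- C-KIT+ SCA-1+ cells and contain the hematopoietic stem cells and early progenitors. The cells were sorted by the surface protein EpCAM into 4 EpCAM+ and 4 EpCAM- libraries, to ask how the transcriptomes of the fractions differ. All libraries came from C57BL/6 mice carrying Zeb1 fl/fl and Mx1-Cre, in which injection of pIpC deletes Zeb1, a transcriptional repressor, and RNA was taken 14 days after the last dose. Mice were 8 to 12 weeks old. Both fractions were Zeb1-/-, so no value below compares deleted with undeleted cells. Mx1-Cre answers to interferon and also recombines outside the blood. The notes give 4 mice per genotype and do not say whether libraries with the same number came from the same mouse.

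Lysosomes break down proteins, glycans and lipids in an acidic lumen. Most of their hydrolases are made as precursors, tagged with mannose 6-phosphate in the Golgi and carried to the organelle by receptors, while the vacuolar ATPase pumps in protons and a coat of heavily glycosylated membrane proteins shields the membrane. The transcription factors TFEB and TFE3 bind the CLEAR element in the promoters of many of these genes and raise their transcription when they enter the nucleus, so their activity is set mainly by location and phosphorylation rather than by transcript level. In the hematopoietic system, lysosomal activity is known to bear on the quiescence of stem cells, and antigen-presenting cells use lysosomal proteases to load MHC class II.

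Libraries held 15225714 to 17073546 counts in EpCAM+ cells and 14114491 to 15929923 in EpCAM- cells. Values are CPM, counts per 1000000 counts of the library after TMM scaling, and 3 counts correspond to 0.168 to 0.222 CPM. The sorted gene Epcam read 161 to 234 CPM in EpCAM+ libraries and 1.25 to 8.99 CPM in EpCAM- libraries. Zeb1 read 14.8 to 23.7 CPM in EpCAM+ and 9.49 to 14.0 CPM in EpCAM- libraries, and since the table counts whole genes, these values do not tell the deleted part from the rest. Of the genes behind the LSK gate, Kit was detected at 155 to 328 CPM across the libraries. Cd34 (630 to 1080 CPM) and Flt3 (136 to 464 CPM), which subdivide these cells and are not part of the gate, were also detected in every library. Ly6a, which encodes SCA-1, was detected at 116 to 351 CPM in EpCAM+ cells and at 15.7 to 71.7 CPM in EpCAM- cells. On the first principal component, with 70.6% of the variance, EpCAM+ and EpCAM- libraries lay apart.

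Lysosomal genes moved in both directions between the fractions, while their summed share of the counts overlapped. The members took 0.431% to 0.598% of all counts in EpCAM+ libraries and 0.430% to 0.485% in EpCAM- libraries. All 39 passed the filter on low counts, with 68 to 10887 counts per library. Of these, 17 (43.6%) had an adjusted p under 0.05 by edgeR's quasi-likelihood test, where 42.6% of the 13560 genes tested did, a share near that of the background. In EpCAM+ cells 9 were higher and 8 lower, beside 21.8% and 20.8% of all genes tested. This fit did not pair the libraries. With the replicate number as a block, 53.8% of the members and 50.3% of all genes tested were called. The median log2 fold change of the members was -0.04, and that of all genes tested was 0.02. For 13 members the 4 values of 1 fraction all lay above those of the other, as they did for 40.1% of all genes tested. The differences ran from 5.21-fold lower (Ctse) to 3.53-fold higher (Ppt1) in EpCAM+ cells. As these are bulk libraries, fewer cells of a type and less RNA per cell cannot be told apart.

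**Figure D1:**
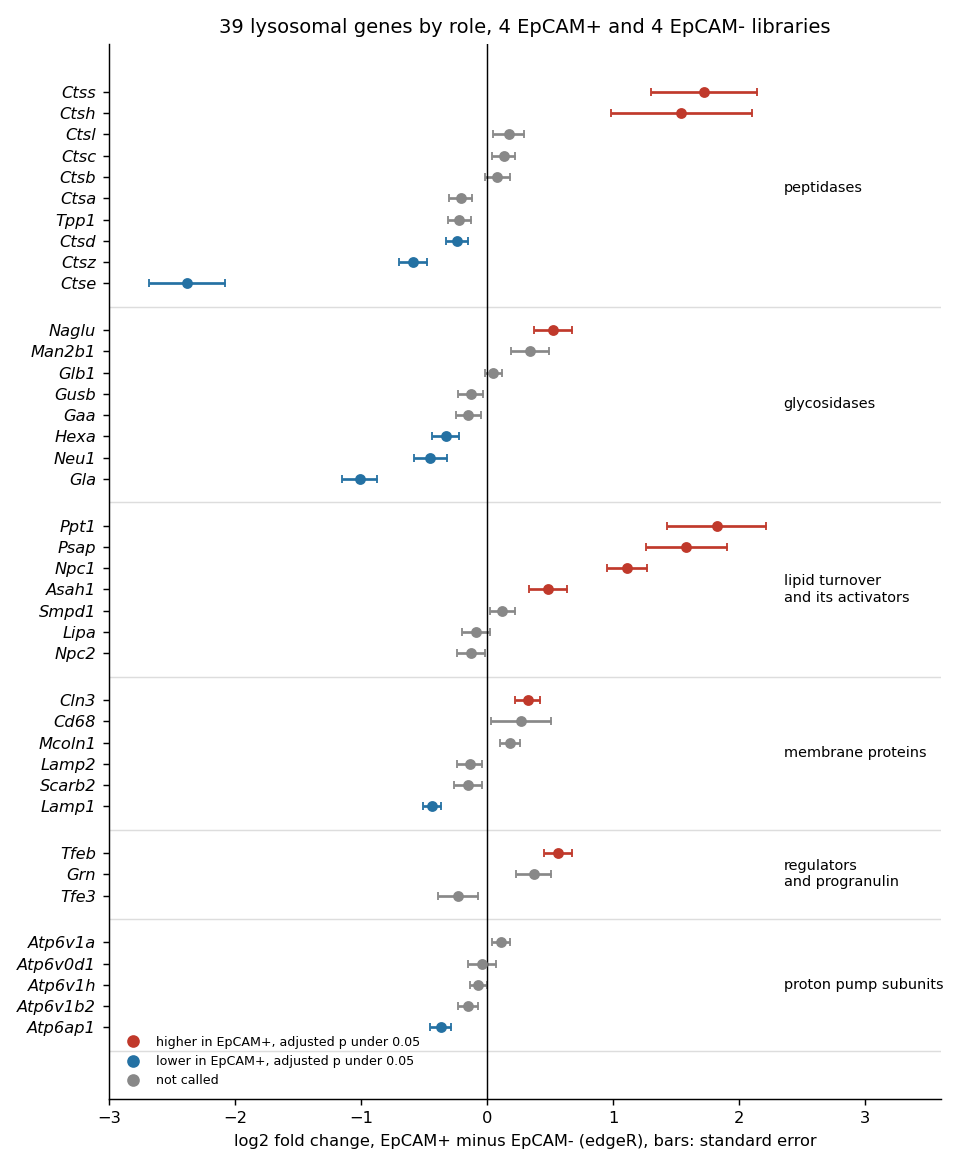
Log2 fold change of the 39 members (horizontal axis, EpCAM+ minus EpCAM-, edgeR) with its standard error, grouped by role, over 4 EpCAM+ and 4 EpCAM- libraries. Red points were called higher (9), blue points lower (8) and grey points not called (22). The largest differences were those of Ctse (-2.38) and Ppt1 (1.82), and 4 of the 7 genes of lipid turnover were called higher (21.8% of all genes tested were).

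With 1 library left out, the number called higher fell to 5 without EpCAM- replicate 3, and the number called lower fell to 5 without EpCAM+ replicate 3 and to 5 without EpCAM+ replicate 4. Of all genes tested, 17.5% were higher without EpCAM- replicate 3 (21.8% in the main fit). Without EpCAM+ replicate 3 and without EpCAM+ replicate 4, 16.5% and 18.8% were lower (20.8% in the main fit). Calls that held in all 8 such fits were those of Ppt1, Psap, Ctss, Npc1, Tfeb, Ctse, Gla, Ctsz, Lamp1 and Atp6ap1.

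Promoter windows from RefSeq (GRCm38.p6, from 250 bases before to 50 bases after each start site) matched 32 of the 39 members by symbol. Ctsb, Ctse, Ctsh, Npc1, Asah1, Atp6v1b2 and Atp6v1h had none in that table. They were searched on both strands for CACGTG, the E-box at the core of the CLEAR element, for its extended form TCACGTGA, which contains CACGTG, and for CAGGTG, an E-box bound by Zeb1. CACGTG lay in the windows of 12 members (37.5%), against 8.09% of 27025 genes. TCACGTGA lay in those of 7 members (21.9%), against 1.12% of genes. CAGGTG lay in those of 5 members (15.6%), against 22.6% of genes. The promoters with CACGTG were spread over the directions of change: 2 of 6 matched members called higher held it, 3 of 7 called lower and 7 of 19 not called. These shares describe letters in a window and were not tested. The promoters of 4 members are shown, because they carry these letters in genes that moved in opposite directions. Each is the 250 bases before the start site, with CACGTG or TCACGTGA in capitals. Gla, lower in EpCAM+ cells, holds TCACGTGA at 2 places (chrX:134601006-134601255, minus strand). Lamp1, also lower, holds CACGTG at 4 places, all within 61 bases of the start site (chr8:13158911-13159160, plus strand). Ctsd, lower with a small difference, holds 2 (chr7:142387828-142388077, minus strand). Cln3, higher, holds 2 in the window shown (chr7:126583237-126583486, minus strand), which starts inside the annotated gene, and none in the other of its 2 windows.
Gla: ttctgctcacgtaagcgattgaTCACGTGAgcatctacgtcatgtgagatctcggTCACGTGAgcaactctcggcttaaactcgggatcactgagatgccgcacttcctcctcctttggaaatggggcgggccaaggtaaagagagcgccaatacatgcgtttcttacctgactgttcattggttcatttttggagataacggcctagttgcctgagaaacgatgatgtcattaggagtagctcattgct
Lamp1: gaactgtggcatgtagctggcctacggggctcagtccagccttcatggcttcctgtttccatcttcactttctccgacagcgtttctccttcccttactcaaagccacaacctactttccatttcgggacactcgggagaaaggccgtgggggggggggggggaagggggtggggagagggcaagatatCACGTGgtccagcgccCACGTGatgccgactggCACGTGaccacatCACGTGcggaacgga
Ctsd: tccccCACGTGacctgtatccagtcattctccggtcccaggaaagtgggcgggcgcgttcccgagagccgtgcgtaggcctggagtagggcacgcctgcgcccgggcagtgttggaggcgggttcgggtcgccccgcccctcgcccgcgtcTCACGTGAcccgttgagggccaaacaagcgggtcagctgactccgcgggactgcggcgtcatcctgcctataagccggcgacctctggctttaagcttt
Cln3: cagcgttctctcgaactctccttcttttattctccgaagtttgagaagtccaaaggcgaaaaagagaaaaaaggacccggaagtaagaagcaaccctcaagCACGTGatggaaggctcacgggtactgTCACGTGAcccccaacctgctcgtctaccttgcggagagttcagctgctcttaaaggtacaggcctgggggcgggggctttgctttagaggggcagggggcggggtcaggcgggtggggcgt

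Of the 10 peptidases, 2 were higher and 3 lower in EpCAM+ cells (50% called, beside 42.6% of all genes tested). The largest differences belonged to an aspartic and a cysteine peptidase that moved in opposite directions. Ctse (chr1:131638306-131675505), an aspartic peptidase of endosomes, read 41.8, 32.6, 33.3 and 37.5 CPM in EpCAM+ replicates 1 to 4 and 117, 117, 213 and 310 CPM in EpCAM- replicates 1 to 4. Its EpCAM+ values were close together and all below the EpCAM- values, among which replicates 3 and 4 stood highest. The log2 fold change was -2.38 (standard error, SE, 0.30, edgeR adjusted p = 0.000335). Ctsd, the main aspartic peptidase of the lysosome, read 239, 276, 225 and 216 CPM in EpCAM+ and 283, 306, 274 and 267 CPM in EpCAM- cells. The fractions overlapped for Ctsd, since EpCAM+ replicate 2 lay above EpCAM- replicates 3 and 4, and the log2 fold change was -0.24 (SE 0.09, edgeR adjusted p = 0.0477). Ctsz, a cysteine carboxypeptidase, read 272, 202, 203 and 272 CPM against 356, 371, 355 and 350 CPM, with no overlap and a log2 fold change of -0.59 (SE 0.11, edgeR adjusted p = 0.00215).

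Ctss (chr3:95526786-95556403) is the cysteine cathepsin that trims the invariant chain of MHC class II in antigen-presenting cells. It read 200, 49.0, 63.3 and 156 CPM in EpCAM+ replicates 1 to 4 and 44.1, 44.2, 22.8 and 30.2 CPM in EpCAM- replicates 1 to 4. All EpCAM+ values were above the EpCAM- values, but replicates 1 and 4 lay far above replicates 2 and 3. Its log2 fold change was 1.72 (SE 0.42, edgeR adjusted p = 0.0085). Ctsh, a cysteine aminopeptidase whose library values were picked for print after they were seen, read 63.0, 14.4, 20.4 and 49.1 CPM against 26.3, 5.03, 11.8 and 6.84 CPM. Here too EpCAM+ replicates 1 and 4 were highest, and the fractions overlapped. The log2 fold change was 1.54 (SE 0.56, edgeR adjusted p = 0.0477; 0.0685 by DESeq2). The other 5 peptidases were not called: the endopeptidases Ctsl (0.17) and Ctsb (0.08), the dipeptidyl peptidase Ctsc (0.13), the tripeptidyl peptidase Tpp1 (-0.22) and the carboxypeptidase Ctsa (-0.21), each with its log2 fold change. With the replicate number as a block, Tpp1 (adjusted p = 0.0348) and Ctsa (0.0144) passed the threshold of edgeR's test, and each also passed with 1 library left out, Tpp1 without EpCAM- replicate 2 (0.0148) and Ctsa without EpCAM- replicate 3 (0.0497).

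The small difference of Ctsd held as a call in 1 of the 8 fits that left out 1 library, the one without EpCAM+ replicate 2, and had adjusted p from 0.0507 (without EpCAM- replicate 4) to 0.124 (without EpCAM+ replicate 3) in the others. Upper-quartile scaling took its call away as well (adjusted p = 0.191). Ctsh lost its call without EpCAM+ replicate 1 (log2 fold change 1.14, adjusted p = 0.136), EpCAM+ replicate 4 (adjusted p = 0.105), EpCAM- replicate 2 (0.11), EpCAM- replicate 3 (0.105) or EpCAM- replicate 4 (0.115).

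Among the 8 glycosidases, 1 was higher and 3 were lower in EpCAM+ cells (50% called, beside 42.6% of all genes tested). Gla (chrX:134588149-134601125), alpha-galactosidase A, which removes terminal galactose from glycolipids and is deficient in Fabry disease, read 12.3, 13.1, 9.61 and 15.6 CPM in EpCAM+ and 24.2, 25.9, 23.9 and 27.7 CPM in EpCAM- cells. The replicates were close together within each fraction and the fractions lay apart. The log2 fold change was -1.01 (SE 0.14, edgeR adjusted p = 0.000588), which is 2.01-fold lower. Neu1, the lysosomal sialidase, read 21.4, 24.0, 17.8 and 18.2 CPM against 33.8, 26.6, 24.6 and 26.4 CPM. The groups did not overlap, though EpCAM+ replicate 2 came close to EpCAM- replicate 3, and the log2 fold change was -0.45 (edgeR adjusted p = 0.0204). Hexa, the alpha subunit of beta-hexosaminidase, read 172, 148, 133 and 147 CPM against 224, 193, 174 and 161 CPM, with overlap and a log2 fold change of -0.33 (edgeR adjusted p = 0.038). Naglu, which degrades heparan sulfate, went the other way at 39.9, 38.1, 30.7 and 31.6 CPM against 30.5, 25.7, 20.9 and 20.4 CPM. EpCAM+ replicate 3 and EpCAM- replicate 1 nearly met for Naglu, whose log2 fold change was 0.52 (edgeR adjusted p = 0.0156).

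The remaining glycosidases had log2 fold changes of 0.34 (Man2b1, alpha-mannosidase), -0.15 (Gaa, acid alpha-glucosidase), -0.13 (Gusb, beta-glucuronidase) and 0.05 (Glb1, beta-galactosidase), and none was called. Man2b1 passed the threshold with the replicate block (adjusted p = 0.0403) and without EpCAM+ replicate 3 (0.0413), and Gaa without EpCAM- replicate 2 (0.045). Neu1 was no longer called with upper-quartile scaling (adjusted p = 0.0524) or without EpCAM+ replicate 3 (0.0608) or 4 (0.0558). Hexa lost its call with upper-quartile scaling (0.111) and without EpCAM+ replicate 2, 3 or 4 (0.0747, 0.105 and 0.0782) or EpCAM- replicate 1 or 2 (0.082 and 0.0718). Naglu lost its call without EpCAM- replicate 3 (0.0512).

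Among the genes of lipid turnover, 4 of 7 were higher in EpCAM+ cells (21.8% of all genes tested were) and the other 3 were not called, with a median log2 fold change of 0.48 beside 0.02 over all genes tested. Ppt1 (chr4:122836242-122859175), the thioesterase that strips palmitate from proteins under degradation, read 695, 176, 249 and 654 CPM in EpCAM+ replicates 1 to 4 and 132, 142, 118 and 111 CPM in EpCAM- replicates 1 to 4. Psap (chr10:60277627-60302597), the precursor of the saposins that present glycosphingolipids to their hydrolases, read 712, 228, 312 and 609 CPM against 204, 130, 151 and 138 CPM. Both had EpCAM+ values wholly above the EpCAM- values, with replicates 1 and 4 well above replicates 2 and 3. The log2 fold changes were 1.82 (SE 0.39, edgeR adjusted p = 0.0043) for Ppt1 and 1.58 (SE 0.32, edgeR adjusted p = 0.0036) for Psap. Npc1 (chr18:12189693-12236400), the membrane transporter that exports cholesterol, read 35.8, 31.8, 28.0 and 27.2 CPM against 16.3, 17.6, 11.3 and 11.7 CPM. Its replicates did not split as those of Ppt1 and Psap did, and the log2 fold change was 1.11 (SE 0.16, edgeR adjusted p = 0.000707), which is 2.16-fold higher.

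Npc2, the soluble protein that hands cholesterol to Npc1, did not pass the test, at a log2 fold change of -0.13 (edgeR adjusted p = 0.348). Asah1, acid ceramidase, read 113, 84.7, 77.7 and 106 CPM against 80.0, 76.0, 61.1 and 55.4 CPM. The fractions overlapped for Asah1 and the log2 fold change was 0.48 (edgeR adjusted p = 0.0236). Without EpCAM+ replicate 1 or 4 or EpCAM- replicate 3 or 4 it was not called (adjusted p = 0.0706, 0.0663, 0.071 and 0.063). Smpd1, acid sphingomyelinase (0.12), and Lipa, the acid lipase of cholesteryl esters (-0.09), were not called.

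**Figure D2:**
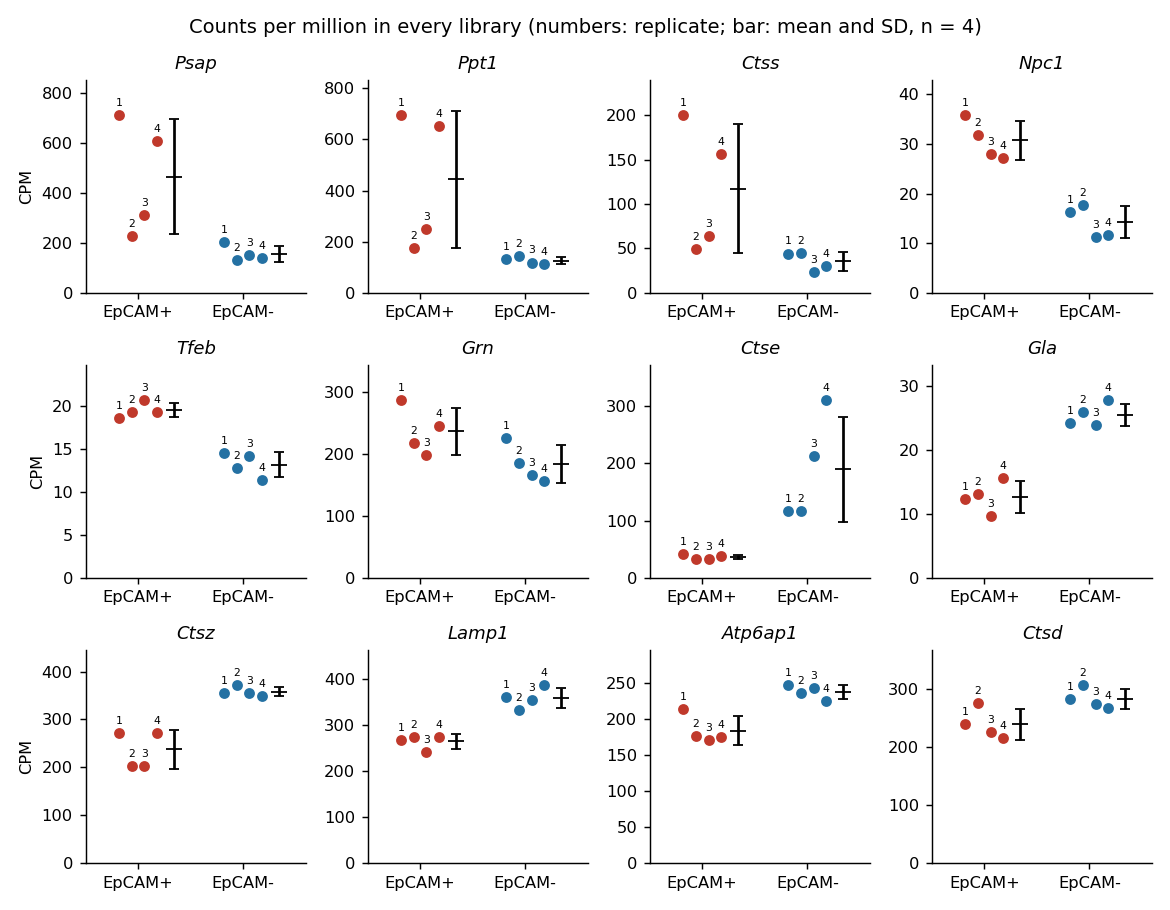
CPM (vertical axes from 0) of 12 members in each of the 8 libraries, with the replicate number above each point and the mean and SD of 4 libraries beside them. Psap, Ppt1 and Ctss were carried highest by EpCAM+ replicates 1 and 4, whereas Npc1, Tfeb, Gla and Lamp1 were close together within each fraction, and Ctse was highest in EpCAM- replicates 3 and 4.

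The 6 membrane proteins included 1 higher and 1 lower gene (33.3% called, beside 42.6% of all genes tested). Lamp1, a major coat glycoprotein of the lysosomal membrane, read 266, 274, 241 and 274 CPM in EpCAM+ and 361, 331, 354 and 385 CPM in EpCAM- cells. The gap between the fractions was wider than the spread within either, and the log2 fold change was -0.44 (SE 0.07, edgeR adjusted p = 0.00134). Its relative Lamp2 read 130, 151, 128 and 122 CPM against 164, 155, 136 and 127 CPM and was not called (log2 fold change -0.14, edgeR adjusted p = 0.291). Cln3, the membrane protein lost in juvenile Batten disease, read 45.2, 36.9, 39.6 and 34.2 CPM against 32.6, 30.0, 29.6 and 32.1 CPM. Its fractions lay close without overlap, and the log2 fold change was 0.32 (SE 0.10, edgeR adjusted p = 0.0229). Mcoln1, the calcium channel that links lysosomal calcium release to TFEB, read 45.7, 44.3, 38.8 and 43.4 CPM against 37.8, 38.5, 35.0 and 40.3 CPM. It was not called under TMM scaling (log2 fold change 0.18, edgeR adjusted p = 0.0981) and passed with upper-quartile scaling (0.0243). Scarb2, the receptor that carries glucocerebrosidase (-0.15), and the macrophage-rich sialomucin Cd68 (0.27) were not called. Cln3 was not called without EpCAM+ replicate 1 or 3 or EpCAM- replicate 2 or 3 (adjusted p = 0.0708, 0.0565, 0.0537 and 0.0683).

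Of the transcription factors, Tfeb (chr17:47737030-47792419) was higher in EpCAM+ cells and Tfe3 was not called. Tfeb read 18.6, 19.3, 20.6 and 19.3 CPM in EpCAM+ and 14.5, 12.7, 14.1 and 11.3 CPM in EpCAM- cells, with the replicates close together and the fractions apart. The log2 fold change was 0.56 (SE 0.11, edgeR adjusted p = 0.00275), which is 1.48-fold. Tfe3 read 19.4, 16.6, 17.9 and 21.0 CPM against 18.0, 17.7, 24.6 and 27.6 CPM, with overlap and a log2 fold change of -0.23 (edgeR adjusted p = 0.256). Grn, progranulin, which binds prosaposin and is cut into granulins in the lysosome, read 286, 217, 198 and 244 CPM against 226, 185, 166 and 156 CPM. Its fractions overlapped, since EpCAM- replicate 1 lay above EpCAM+ replicates 2 and 3, and the log2 fold change was 0.37 (SE 0.14, edgeR adjusted p = 0.054). With the replicate block Grn was called (adjusted p = 0.00439), as it was with DESeq2 (0.0408), with upper-quartile scaling (0.0262) and without EpCAM+ replicate 3 (0.0382) or EpCAM- replicate 1 (0.0138).

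Of the 5 proton pump subunits, 1 was lower and 4 were not called (20% called, beside 42.6% of all genes tested). Atp6ap1, an accessory subunit of the pump, read 214, 177, 171 and 175 CPM in EpCAM+ and 247, 237, 243 and 225 CPM in EpCAM- cells. EpCAM+ replicate 1 stood above its group but below every EpCAM- library, and the log2 fold change was -0.37 (SE 0.08, edgeR adjusted p = 0.00583). Atp6v1b2, of the catalytic head, read 110, 99.3, 105 and 111 CPM against 131, 110, 123 and 110 CPM (log2 fold change -0.15). Atp6v1a, the catalytic subunit itself, read 78.2, 79.6, 72.8 and 76.1 CPM against 78.1, 68.7, 66.9 and 69.7 CPM (0.11). Both overlapped between the fractions. Atp6v1h, a regulatory subunit, read 109, 97.3, 95.3 and 100 CPM against 113, 104, 106 and 99.1 CPM (-0.07), and Atp6v0d1, which joins the head to the membrane sector, had a log2 fold change of -0.04. A p that misses the threshold does not show that the fractions were alike for these subunits.

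Across the EpCAM+ libraries, the 4 members with the greatest rise had the same order of values as several markers of conventional dendritic cells. Some markers of other cell types had that order too. Of the 8 markers listed, 7 were tested and 6 were higher in EpCAM+ cells, where 21.8% of all genes tested were. The summed level of the 8 was 65.5 to 323 CPM in EpCAM+ and 38.3 to 47.8 CPM in EpCAM- libraries. Xcr1, a chemokine receptor of cross-presenting dendritic cells, read 147, 11.5, 35.8 and 131 CPM in EpCAM+ replicates 1 to 4 and 0.137 to 0.811 CPM in EpCAM- libraries. Clec9a, a receptor for dead cells on the same cells, read 27.5, 1.25, 5.14 and 26.3 CPM against 0 to 0.562 CPM, at 0 in EpCAM- replicates 2 and 3. Zbtb46, a transcription factor of conventional dendritic cells, was the tested marker that was not called, at 14.3, 1.87, 4.02 and 13.9 CPM against 4.93, 5.33, 14.7 and 16.5 CPM (log2 fold change -0.29). Ccr7, called higher, read 4.12, 3.29, 2.85 and 6.94 CPM in EpCAM+ replicates 1 to 4, with replicate 3 lowest. Batf3 was at 0 in EpCAM- replicate 2, and Cd209a, the marker not tested, was at 0 in EpCAM+ replicates 1 to 3. Xcr1, Clec9a and Batf3 passed the filter on low counts through their EpCAM+ values, so a lower call was not open to them. The order of Xcr1 (replicates 1 and 4 above 3, and 3 above 2) was shared by 4 of the 9 members called higher, Ppt1, Psap, Ctss and Ctsh. It was also that of 2 of the 8 called lower, Ctse and Ctsz, and of 3 of the 22 not called, Lipa, Atp6v1b2 and Tfe3, and it held for 10.4% of all genes tested. The monocyte marker Ccr2 had it (101, 8.05, 28.3 and 90.7 CPM), as did the B cell marker Ms4a1 (12.8, 1.19, 2.29 and 7.26 CPM). Of the other markers of those cell types, Ly6c2 and Cd79a had it, and others, such as Lyz2 and Cd79b, did not. Of the tested dendritic cell markers, Xcr1, Clec9a, Batf3, Itgax, Wdfy4 and Zbtb46 had the order and Ccr7 did not. The order was thus common among dendritic cell markers but not particular to them. In a fit without EpCAM+ replicates 1 and 4, chosen after the values were seen, Ppt1 had a log2 fold change of 0.75 (edgeR adjusted p = 0.00801), Psap 0.79 (edgeR adjusted p = 0.016), Ctss 0.66 (edgeR adjusted p = 0.0761) and Ctsh 0.46 (edgeR adjusted p = 0.548). In that fit Npc1 (1.06) and Tfeb (0.59) stayed higher and Gla (-1.17), Ctse (-2.52), Ctsz (-0.82), Lamp1 (-0.48), Atp6ap1 (-0.45) and Hexa (-0.43) stayed lower, with 4 members called higher and 7 lower in all. That was 28.2% of the members, where 26.2% of all genes tested were called in that fit (13% higher and 13.2% lower). Naglu (0.49), Asah1 (0.25), Cln3 (0.29), Neu1 (-0.42) and Ctsd (-0.18) were not called in it, while Npc2 was called lower (-0.35, edgeR adjusted p = 0.0276). The libraries left out were those in which Ppt1, Psap, Ctss and Ctsh were highest, so smaller log2 fold changes of these members followed from that choice, and the part of dendritic cells in the result was not tested.

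Other lineages moved as well. The summed level of 8 erythroid markers was 90.4 to 271 CPM in EpCAM+ libraries and 2020, 2290, 5080 and 6890 CPM in EpCAM- replicates 1 to 4, with 6 of the 7 tested lower in EpCAM+ cells (20.8% of all genes tested were). In EpCAM- replicates 1 to 4, mast cell and basophil markers summed to 281, 363, 554 and 399 CPM. Megakaryocyte markers summed to 191, 83.5, 247 and 286 CPM there. Both sums were also highest in replicates 3 and 4, whereas neutrophil sums and monocyte and macrophage sums were highest in replicate 1. Ctse was highest in EpCAM- replicates 3 and 4 as well. Without those 2 libraries, a setting also chosen after the values were seen and bound to bring the fractions closer for this gene, the log2 fold change of Ctse was -1.70 (SE 0.11, edgeR adjusted p = 0.000407). In that fit Psap (1.46, edgeR adjusted p = 0.0583), Ppt1 (1.68, edgeR adjusted p = 0.0654) and Ctss (1.39, edgeR adjusted p = 0.105) were not called, and the members called were 2 higher (Npc1 and Tfeb) and 8 lower. That was 25.6% of the members, where 23.1% of all genes tested were called in that fit (11.4% higher and 11.7% lower). The 12 neutrophil markers summed to 1100 to 1860 CPM in EpCAM+ and 12000 to 18600 CPM in EpCAM- libraries, with 6 of 11 tested lower. The 6 mast cell and basophil markers summed to 71.9 to 97.0 and 281 to 554 CPM, with 4 lower. Both counts stand beside 20.8% lower among all genes tested. For 12 monocyte and macrophage markers the sums overlapped, at 590 to 854 and 475 to 1210 CPM, with 1 of 9 tested higher and 3 lower in EpCAM+ cells. Among all genes tested, 21.8% were higher and 20.8% lower. Cd14 and Adgre1, and the neutrophil marker Mmp8, all called lower, passed the filter on low counts mainly through their EpCAM- values. A higher call was thus hardly open to them. Csf1r, the receptor for macrophage colony-stimulating factor, read 0.785 to 3.11 CPM in EpCAM+ and 17.0 to 30.8 CPM in EpCAM- libraries, whereas Lyz2, lysozyme, read 538 to 631 and 257 to 434 CPM (log2 fold change 0.68). Plasma cell markers summed to 3980 CPM in EpCAM+ replicate 1, to 389 to 674 CPM in the other EpCAM+ libraries and to 171 to 259 CPM in EpCAM- libraries. Stem and progenitor markers summed to 2610 to 2780 CPM against 1440 to 2240 CPM, and 8 of 10 were higher in EpCAM+ cells (21.8% of all genes tested were). The part of these lineages in the members' values was not tested.

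**Figure D3:**
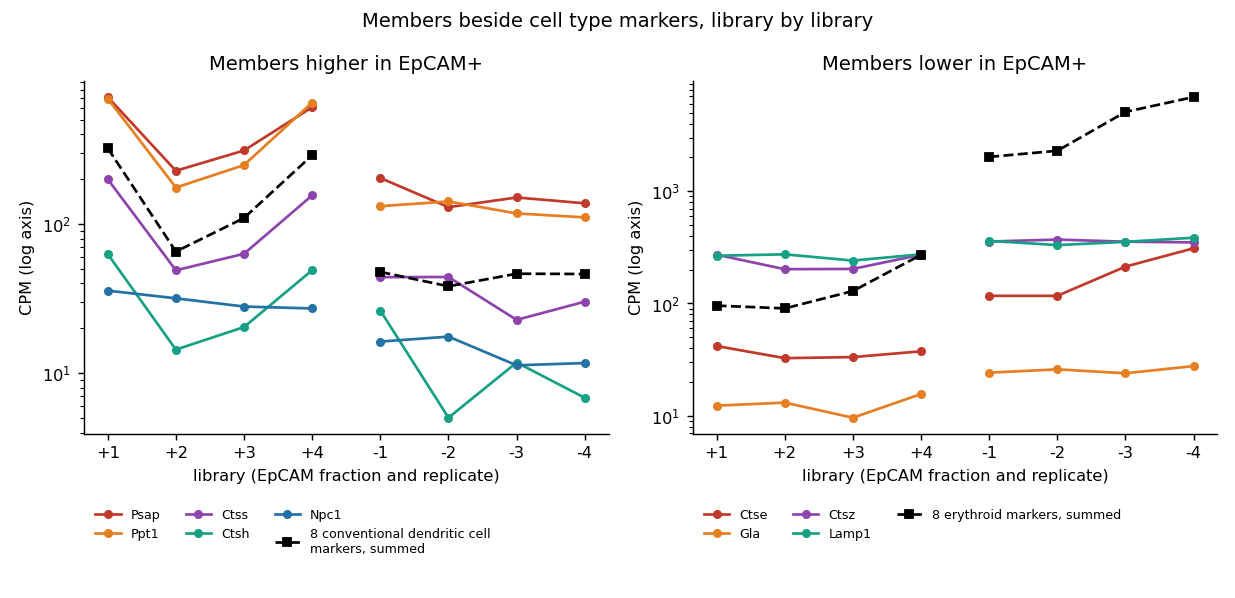
CPM on a log axis for members called higher (left) and lower (right) in EpCAM+ replicates 1 to 4 and EpCAM- replicates 1 to 4, with the summed CPM of 8 conventional dendritic cell markers (left) or 8 erythroid markers (right) in black. Lines join libraries of 1 fraction to guide the eye and imply no order. The dendritic cell sum was 323 and 290 CPM in EpCAM+ replicates 1 and 4, where Ppt1, Psap, Ctss and Ctsh were also highest. Some markers not plotted, such as Ccr2 and Ms4a1, were highest in those EpCAM+ libraries too. Sums of mast cell and of megakaryocyte markers, also not plotted, shared the highest EpCAM- libraries of the erythroid sum.

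Some members share their place in the genome with another gene, and the sources used here do not say whether counting used strand. Npc1 overlaps Rmc1 on the opposite strand, whose counts came to 212% of its own, and Rmc1 was not called (log2 fold change -0.16, edgeR adjusted p = 0.178). Ctsz overlaps Nelfcd (36.6% of the counts of Ctsz), which was also lower (-0.27). Cln3 overlaps Apobr (29.3%), a lipoprotein receptor gene that read 12.4 to 20.1 CPM in EpCAM+ and 3.41 to 5.85 CPM in EpCAM- libraries (log2 fold change 1.84). Ppt1 overlaps Cap1 (7.14%, log2 fold change 0.25, not called). Ctss overlaps the pseudogene Hmgb1-ps5 (11.6%, -0.16) and Glb1 overlaps Tmppe (17.3%, 0.26), both on the same strand. Ctsb overlaps Fdft1 on the opposite strand (14.0%, 0.01). Of the overlapping genes named here, Nelfcd was called lower (edgeR adjusted p = 0.0111) and Apobr higher (edgeR adjusted p = 0.000296). Rmc1, Cap1, Hmgb1-ps5, Tmppe and Fdft1 were not called. The values of Npc1, Ctsz, Cln3, Ppt1, Ctss, Glb1 and Ctsb are uncertain to the extent that reads of the overlapping genes were counted with them. This was not tested.

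The rest of the lysosomal pathway was examined through 6 lists with 98 tested genes, of which 20 were higher and 17 lower (37.8% called, median log2 fold change 0.08), beside 42.6% called and a median of 0.02 over all genes tested. Of 30 other lysosomal hydrolases, 12 were higher, where 21.8% of all genes tested were, and 2 were lower (Hyal2, a hyaluronidase, at -0.49, and Galns, a galactosamine sulfatase, at -0.39), and the median was 0.37. The call of Galns was lost without EpCAM+ replicate 3 or 4 or EpCAM- replicate 1 or 3 (adjusted p up to 0.091). Ctsw, a cathepsin known from cytotoxic lymphocytes, read 42.2, 49.4, 37.9 and 37.2 CPM in EpCAM+ and 19.1, 17.2, 14.1 and 9.56 CPM in EpCAM- cells (log2 fold change 1.48, edgeR adjusted p = 0.000397). Ctso, another cysteine cathepsin, had a log2 fold change of 0.74, and Sgsh, the heparan N-sulfatase, one of 0.88. Naaa, an acid amidase of N-acylethanolamines named after its values were seen, read 341, 34.1, 79.0 and 286 CPM against 4.03 to 14.7 CPM (log2 fold change 4.56, edgeR adjusted p = 0.0011), again highest in EpCAM+ replicates 1 and 4.

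Of 12 genes of mannose 6-phosphate sorting, which delivers hydrolases to the lysosome, 3 were lower and 9 were not called. The 25% called, all lower, stood beside 42.6% called and 20.8% lower among all genes tested. The lower genes were Nagpa, the uncovering enzyme that exposes the tag (-0.50), Gga2, an adaptor of the receptors (-0.64), and M6pr, the cation-dependent receptor (-0.37). M6pr read 332, 283, 293 and 320 CPM in EpCAM+ and 401, 362, 402 and 422 CPM in EpCAM- cells, without overlap. Of 13 other proton pump subunits tested, 5 were lower, Atp6ap2 (-0.37), Atp6v0c (-0.48), Atp6v1c1 (-0.29), Atp6v0a1 (-0.83) and Atp6v1e1 (-0.16), and 2 were higher, Atp6v1g2 (0.79) and Atp6v1f (0.19). That is 53.8% called, beside 42.6% of all genes tested. Atp6ap2, the other accessory subunit, had the same log2 fold change as Atp6ap1. The calls of Atp6v1e1 and Atp6v1f were near the threshold: that of Atp6v1e1 was lost without any library but EpCAM- replicate 1 (adjusted p up to 0.122), and that of Atp6v1f without EpCAM+ replicate 2, 3 or 4 or EpCAM- replicate 1, 3 or 4 (up to 0.112).

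Of 21 other membrane and transport proteins, 3 were higher, Laptm4b (1.03), Laptm5 (0.59) and Cd63 (0.46), and 4 lower, Cd164 (-0.38), Abcb9 (-1.05), Tmem192 (-0.45) and Ostm1 (-0.38). A list of 18 tested genes covered the control of TFEB and TFE3 at the lysosome and also held the related factors Mitf and Tfec. Of these genes, Rragb (0.41) was higher, and Lamtor4 (-0.46) and Rheb (-0.21), the GTPase that activates mTORC1, were lower. These lists had 33.3% and 16.7% called, in that order, beside 42.6% of all genes tested. Among these, Tmem192 (adjusted p = 0.0534) and Rragb (0.0514) were not called without EpCAM+ replicate 3, Ostm1 was not called without EpCAM+ replicate 2 or 3 or EpCAM- replicate 1, 3 or 4 (up to 0.0897), and Rheb without EpCAM+ replicate 1, 2 or 3 or EpCAM- replicate 2 or 3 (up to 0.078).

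Inhibitors of the cathepsins had large differences in both directions. Cst7, cystatin F, which restrains cathepsins inside the endosomes of blood cells, read 20.7, 36.5, 30.6 and 42.9 CPM in EpCAM+ and 215, 240, 208 and 169 CPM in EpCAM- cells (log2 fold change -2.67, edgeR adjusted p = 7.11e-05). Cst3, cystatin C, a secreted inhibitor, read 3070, 648, 1170 and 3470 CPM against 565, 529, 431 and 377 CPM (2.13, edgeR adjusted p = 0.00417). Neither Cst7 nor Cst3 overlapped between the fractions, and Cst3 had the same high EpCAM+ replicates, 1 and 4, as Ctss, Ctsh, Ppt1 and Psap. Cst6, also called higher, was at 1.02 to 1.29 CPM in EpCAM+ libraries and at or below the level of 3 counts in EpCAM- libraries. It passed the filter on low counts through its EpCAM+ values, so a lower call was not open to it. Of the other 6 inhibitors listed, Cstb was not called (0.23), 4 were at 0 in every library and 1 had too few counts to be tested.

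**Figure D4:**
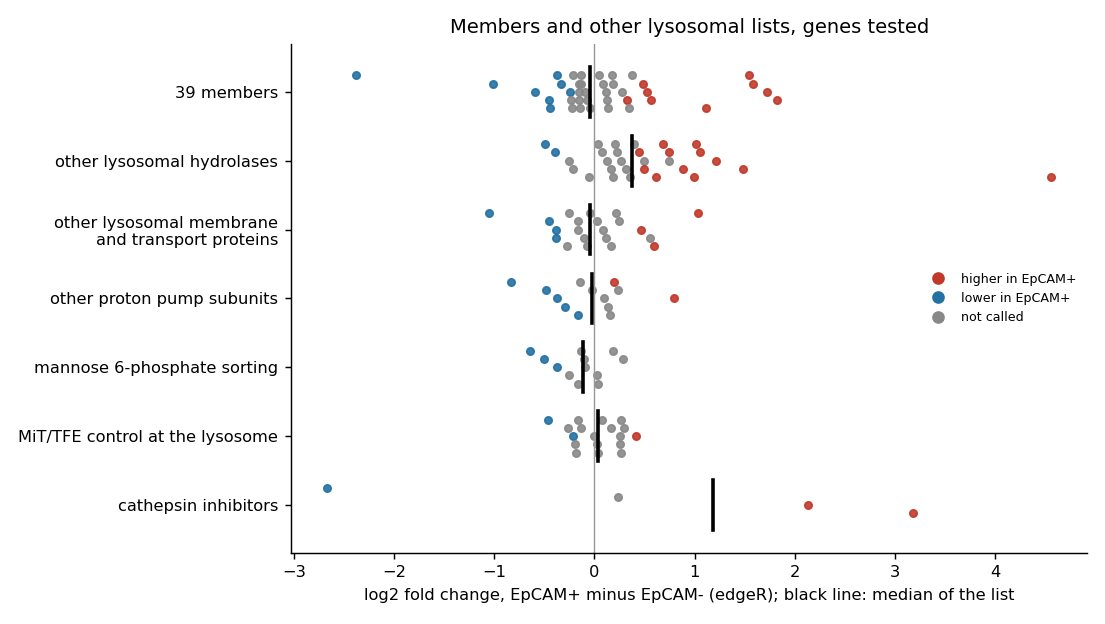
Log2 fold change (horizontal axis, EpCAM+ minus EpCAM-, edgeR) of each tested gene among the 39 members and 6 other lysosomal lists, with the median of each list as a black line. Red, blue and grey points were called higher, called lower and not called. Other hydrolases lay to the right (median 0.37), mannose 6-phosphate sorting a little to the left (-0.12), and the members were centred near 0 (-0.04).

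Levels can be compared between genes after division by length, and the order depended on which length was used. With the length column of the table, the highest mean levels in EpCAM+ cells were those of Psap (170 CPM per kb) and Ctsz (165 CPM per kb), and in EpCAM- cells those of Ctsz (248 CPM per kb) and Lamp1 (134 CPM per kb). By the mean of the deposited FPKM, Grn (259 FPKM) and Ppt1 (252 FPKM) led in EpCAM+ cells, and Lamp1 (244 FPKM) and Ctsz (241 FPKM) in EpCAM- cells. The length column exceeded the length that FPKM implies by a ratio of 1.00 to 6.42 among the members, so ranks between genes are read with that limit, whereas comparisons of a gene between fractions do not use length.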

How the data were processed

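Count data of 8 libraries (4 EpCAM+ and 4 EpCAM- fractions of Zeb1-/- LSK cells) were analysed. Per the submitters' notes, the authors amplified cDNA with SMART-Seq v4, aligned reads to GRCm38.p6 with STAR 2.6.1d, counted them with featureCounts 1.5.0-p3 and deposited raw counts per gene. The authors also deposited FPKM values, which were used here only for levels per length. The deposited fold changes and p-values, from DESeq2 1.20.0, were not used. Annotation release, strand setting and treatment of multi-mapping reads are not given in the sources used here. Deposited counts were filtered by filterByExpr (13560 genes), scaled by TMM and tested two-sided with edgeR 4.0.16 (quasi-likelihood, no block) in R 4.3.3, with Benjamini-Hochberg adjustment over all tested genes and a threshold of 0.05. DESeq2 1.42.0, scalings, filters, a replicate block and leaving out libraries were alternatives. Replicate libraries were not duplicates (chi-square per degree of freedom 9.8 to 91.7 over 12 pairs).

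Library values were given for up to 4 members per role by smallest adjusted p, for both aspartic peptidases and for Tfeb, Tfe3 and Grn, and of other lists up to 3 genes, plus all of a count of 5 or fewer. Members and lists were chosen with earlier results of these data known. Deviations from group means correlated at r = 0.205 to 0.356 in the 4 same-numbered pairs and at -0.216 to 0.0396 in the 12 others. Same-numbered libraries thus shared variation, though the labels do not state a pairing. The main fit did not use it, and calls and p-values are from that fit unless the block is named. P-values measure the spread between these libraries, for which separate mice are stated by genotype only. On simulated counts, 152 of 198 genes changed 2-fold were recovered, with 11 false among 163 calls. The simulation changed few of its 13560 genes and drew the libraries independently. In the data 42.6% of genes tested were called, so these rates need not hold there. Depth limits cover counting error only. Plots used matplotlib 3.10.9 under Python 3.11.15.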

Additional observations from a re-analysis of the deposited data

Results flagged for a closer look

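Among the values of the 39 members in each fraction, 78 groups of 4 libraries were examined for 1 library far from the others, and 2 had one, where chance gives about 1 in 20. Ctsb, a cathepsin, read 336 CPM in EpCAM- replicate 1 and 292 to 297 CPM in the other 3 EpCAM- libraries, with the gap at 0.877 of the range of the group. Atp6ap1 read 214 CPM in EpCAM+ replicate 1 and 171 to 177 CPM in the other EpCAM+ libraries, with the gap at 0.865 of the range. The call of Atp6ap1 held in each fit with 1 library left out.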

How the results depend on the processing

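The replicate block brought the members called to 21, from 17, by adding Man2b1, Tpp1, Ctsa and Grn and removing none. That is 53.8% of the members, where 50.3% of all genes tested were called with the block (42.6% without). Of the members' log2 fold changes, 612 of the alternative values kept direction and side of the threshold, 53 lost the call and 22 gained it. Another 15 changed sign, all in members not called under either setting. Upper-quartile scaling and library totals turned Atp6v1h (0.01 in both) and Atp6v0d1 (0.05 in both). With 1 library left out, Atp6v0d1 ran from -0.09 to 0.04, Glb1 from 0 to 0.08 and Ctsb from 0 to 0.14. With 1 library left out, 12 to 16 members were called, 5 to 10 higher and 5 to 8 lower, and 31 to 40 other lysosomal genes were called. Those fits called 30.8% to 41% of the members and 33.9% to 43.4% of all genes tested. Upper-quartile scaling gave 12 members higher and 5 lower, and 29 other lysosomal genes higher. Library totals gave 12 and 5, and 28. Of all genes tested, 26.9% were higher and 15.4% lower with upper-quartile scaling, and 25.6% and 15.2% with library totals. These scalings moved the share of higher calls among all called genes from 51.2% to 63.6% and 62.7%, and the median over all genes tested from 0.02 to 0.11 on the log2 scale. Without EpCAM+ replicates 1 and 4, added after seeing the data, 11 members were called (4 higher), 13 other lysosomal genes were higher, and 3675 genes were called in all (1819 higher, 1856 lower). Cd68 (-0.22) and Ctsb (-0.08) changed sign there. Without EpCAM- replicates 3 and 4, also added, 10 members were called (2 higher), 11 other lysosomal genes were lower, and 3353 genes were called in all (1653 higher, 1700 lower). Gaa (0.02), Glb1 (-0.01), Lipa (0.01), Ctsc (-0.02) and Tfe3 (0.06) changed sign there. Both leave fewer libraries. The 2 settings called 28.2% and 25.6% of the members, in that order, beside 26.2% and 23.1% of all genes tested. The level per length moved by more than the replicate spread for 32 of 39 members when the authors' FPKM lengths were used. Each member had at least 68 counts in every library.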
